A study of Mus musculus with 22 samples.

Results

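The response of macrophages to bacterial lipopolysaccharide (LPS) in acidified medium was read from 4 RNA-seq libraries, 2 with LPS+HCl and 2 of resting control, out of 22 samples in the series. Libraries were taken by their labels alone, and every gene of the deposited table entered the comparison. The cells were bone marrow-derived macrophages, phagocytes grown for 7 days from marrow of C57/BL6 mice in medium with 30% supernatant of L929 cells, a fibroblast line whose secreted CSF1 drives macrophage growth, and moved to 20% supernatant a day before treatment. In the LPS+HCl group, LPS was given at 100 ng/ml for 3 h in medium brought to low pH with hydrochloric acid, for which the labels give 6.5 as an example and no value per library. LPS libraries (100 ng/ml, 3 h, no acid; 2 libraries) served as the second point of comparison, and control libraries held cells given neither LPS nor acid. All groups share the strain and the L929 medium. No sample of the series was given HCl without LPS, so the values below describe LPS in acid as a whole against rest. The labels do not say whether marrow was pooled over mice or whether replicates were separate cultures. The spread was fitted over all 10 RNA libraries of the series, groups given lactic acid included. The p-values therefore measure only the spread within groups of these 10 libraries, which may be technical.

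LPS is bound by CD14 and passed to Toll-like receptor 4 (TLR4) at the macrophage surface. Signals through the adaptor MyD88 activate NF-kB and MAP kinases, which switch on cytokine and chemokine genes, and signals through the adaptor TRIF activate IRF3, which switches on interferon beta. Secreted interferon then acts back on the cell through STAT proteins and raises antiviral genes. Inflamed tissue is often acidic, and extracellular protons are sensed by receptors such as GPR65, which couples to cyclic AMP.

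Each library held 18668648 to 20219888 counts over the 10 RNA libraries of the series, with 20212042 and 20048439 with LPS+HCl and 19533043 and 20114587 in control. Levels are given as CPM, counts per 1000000 of a library size scaled by TMM, which takes the share of most genes as unchanged. Log2 values are fold changes fitted by edgeR, LPS+HCl over control unless another pair is named, and a gene is called where edgeR's quasi-likelihood F test with Benjamini-Hochberg adjustment over all tested genes gives an adjusted p under 0.05. Replicates correlated across genes (Pearson r of log2 values 0.991 with LPS+HCl and 0.992 in control), and within each group they differed by more than counting error. The macrophage markers defined for the label were present in all 4 libraries, and the genes of the macrophage identity list summed to 22885 and 22232 CPM with LPS+HCl and 20062 and 20483 CPM in control. Markers of T cells, B cells, natural killer cells, neutrophils, erythroid cells, mast cells, dendritic cells and fibroblasts each summed to at most 2.85 CPM in these 4 libraries. Erythroid markers summed to 0 and 0.994 CPM in LPS+HCl replicates 1 and 2, and to 0.808 and 0.0401 CPM in control replicates 1 and 2.

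Transcripts of brain set 1 library of each group apart. The 14 neuron markers in the table summed, in LPS+HCl replicates 1 and 2, to 11 and 55.8 CPM, and in control replicates 1 and 2 to 38.2 and 7.7 CPM. In each other RNA library they summed to between 6.55 and 9.63 CPM. A group of 77 genes was at least 4-fold higher in LPS+HCl replicate 2 than in LPS+HCl replicate 1 and also in control replicate 1 than in control replicate 2, at 1 CPM or more in both high libraries, and 8 of them are on the brain marker lists. No gene had the mirror pattern, high in LPS+HCl replicate 1 and control replicate 2. The 77 genes were chosen on the same values, so their calls are a description: 0 of the 77 were called against control, where 57.6% of all genes were, and 24 were called against LPS, where 38.8% of all genes were. Each of the groups LPS+HCl and control has 1 high library, while both LPS libraries are low. Camk2a, a kinase of neurons, had 2.17 and 14.3 CPM in LPS+HCl libraries, against 11 and 1.56 CPM in control libraries, and the groups overlap (log2 0.38, not called, and −0.10 under total counts). Leaving out 1 library gave log2 −1.53 for Camk2a without LPS+HCl replicate 2 and 2.39 without control replicate 1. Snhg11, a non-coding RNA of neurons, was the only neuron marker called, with 0.223 and 4.09 CPM with LPS+HCl, against 0.647 and 0.0802 CPM in control, and its log2 of 2.55 turned to −0.69 without LPS+HCl replicate 2. Its call was also lost without control replicate 2 (log2 1.73), under total counts (log2 2.07), with the 4 libraries of the contrast alone (log2 2.54) and without any 1 of the lactic acid, LPS or LPS with lactic acid libraries (log2 2.55 in each). The part of these transcripts in other results was not tested beyond leaving the libraries out. On the astrocyte list, Gja1, a gap junction subunit, had 133 and 138 CPM with LPS+HCl, 47.4 and 51.3 CPM with LPS, and 15.8 and 12.3 CPM in control, high in both LPS+HCl libraries. On the oligodendrocyte list, Mbp, the myelin basic protein, had 36.4 and 42.5 CPM with LPS+HCl, 30.5 and 26.7 CPM with LPS, and 53.4 and 54.6 CPM in control, highest in both control libraries. Without both libraries, 5362 genes were called (43.6%), 2929 higher (23.8%) and 2433 lower (19.8%), and of the 7037 genes called with them 5260 were still called and 0 were called in the opposite direction.

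**Figure D1:**
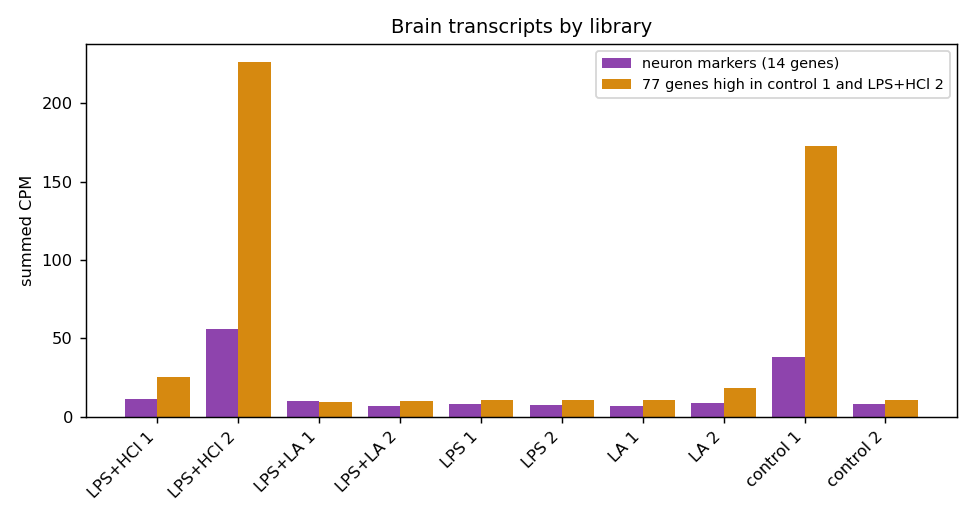
Summed CPM (y axis) of the neuron markers and of 77 genes high in control replicate 1 and LPS+HCl replicate 2, in each of the 10 RNA libraries (x axis). The bars of LPS+HCl replicate 2 (226.5 CPM for the 77 genes) and control replicate 1 (173 CPM) stand above all others (8.99 to 25.3 CPM).

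With all libraries and TMM scaling, most tested genes were called in LPS+HCl against control. Of 12213 genes tested, 7037 were called (57.6%), 3611 of them higher with LPS+HCl (29.6%) and 3426 lower (28.1%). Most changes were small: 4314 called genes differed by a log2 under 1, 2188 by 1 to 3 and 535 by at least 3. The largest changes leaned upwards, since 450 of those 535 were higher and 85 lower. By library, 4761 genes (39.0%) were higher in both LPS+HCl libraries than in both control libraries, and 4895 (40.1%) were lower in both. The balance of the calls depends on scaling. Scaled by total counts alone, 1819 genes were called higher (14.9%) and 6955 lower (56.9%), and the median log2 of all genes, −0.00 under TMM, shifted by −0.48. All changes are given relative to the median gene under TMM. Where list counts are given and their balance turns under total counts, both counts are given. Lists without counts are described by single genes only. Every list count against control is to be set beside 29.6% and 28.1% of all genes, or 14.9% and 56.9% under total counts. Genes that passed the filter on low counts only through their stimulated libraries had to differ, so counts over lists describe the tested members and support nothing further.

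The 10 greatest rises were in genes silent or nearly so at rest, and 7 of them encode secreted inflammatory proteins or enzymes that make inflammatory mediators. Nos2 (NCBI Gene 18126, chromosome 11, 78920787 to 78960226), which makes nitric oxide in activated macrophages, had 505 and 484 CPM in LPS+HCl libraries, against 0 and 0.0401 CPM in control libraries, a ratio of counts of 24575 (95% counting interval 4410.1 to 970712) over 1 control count. Il6 (NCBI Gene 16193, chromosome 5, 30013114 to 30019975), a cytokine that triggers fever and the acute phase response, had 97.4 and 112 CPM in LPS+HCl libraries, against 0 and 0 CPM in control libraries, and with the control group set at a floor of 3 counts was at least 1730.4-fold higher. Both were high in both LPS+HCl libraries and at or next to no count in control. Il1a (NCBI Gene 16175, chromosome 2, 129299609 to 129310186), an alarmin cytokine, had 486 and 582 CPM in LPS+HCl libraries, against 0 and 0.0802 CPM in control libraries, a ratio of 13275 (95% counting interval 3674 to 109622). Ifnb1 (NCBI Gene 15977, chromosome 4, 88522025 to 88522794), the gene of interferon beta, had 34.4 and 32.8 CPM in LPS+HCl libraries, against 0 and 0 CPM in control libraries and was at least 556-fold higher. Il12b (NCBI Gene 16160, chromosome 11, 44400063 to 44414677), the shared subunit of interleukins 12 and 23, had 66.1 and 74.9 CPM in LPS+HCl libraries, against 0.0404 and 0 CPM in control libraries, a ratio of 3503 (95% counting interval 628 to 138416). The rule that named these genes required groups without overlap, and such floors and intervals cover counting error only. Il1b, the interleukin made as a precursor and cut by caspase 1, had 948 and 1139 CPM in LPS+HCl libraries, against 0.525 and 0.762 CPM in control libraries (log2 10.65, SE 0.19). Ccl5, a chemokine for T cells and monocytes, had 2291 and 2008 CPM in LPS+HCl libraries, against 1.33 and 2.29 CPM in control libraries (log2 10.21, SE 0.25). Adamts4, a protease that cleaves cartilage proteoglycan, had 229 and 230.1 CPM in LPS+HCl libraries, against 0.202 and 0.12 CPM in control libraries (log2 10.42, SE 0.18). Itgb8, an integrin subunit that activates TGF-beta, and Heatr9 had no control count and were at least 179.9-fold and 230.0-fold higher. The largest adjusted p of the 10 genes was 0.000322, that of Ifnb1, by edgeR's quasi-likelihood F test and Benjamini-Hochberg adjustment.

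The promoters of 7 of these 10 genes were in the RefSeq promoter table (GRCm38.p6, 250 bases before to 50 after the gene start), and 2 of them, shown here for that reason, held a kB motif, the kind of sequence that NF-kB binds. Il6 is a textbook target of NF-kB, and the Ifnb1 enhancer joins NF-kB with IRF and AP-1 factors. Motifs were searched on both strands. For kB they were GGGA, any 2 bases and TTCC, or GGG, any 2 bases and TTTCC, which overlap each other and were counted once where both matched. For the interferon type the motif was GAAA, any 2 bases and GAAA. Capitals mark the kB match, which starts at base −44 from the gene start in Il6 (chr5:30012864-30013163, plus strand) and at base −116 in Ifnb1 (chr4:88522745-88523044, minus strand).
Il6: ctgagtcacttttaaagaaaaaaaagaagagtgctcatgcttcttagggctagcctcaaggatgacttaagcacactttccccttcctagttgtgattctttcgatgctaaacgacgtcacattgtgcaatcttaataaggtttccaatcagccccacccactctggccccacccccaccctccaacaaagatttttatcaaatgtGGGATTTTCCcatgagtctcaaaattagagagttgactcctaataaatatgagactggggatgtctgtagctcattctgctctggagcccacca
Ifnb1: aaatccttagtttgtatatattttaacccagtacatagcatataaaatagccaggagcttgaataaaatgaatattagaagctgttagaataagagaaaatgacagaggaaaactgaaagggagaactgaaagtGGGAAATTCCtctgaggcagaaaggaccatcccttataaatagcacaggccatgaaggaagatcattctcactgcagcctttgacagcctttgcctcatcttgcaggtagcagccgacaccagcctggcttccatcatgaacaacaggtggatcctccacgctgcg
The kB match lies 44 to 35 bases before the start of Il6 and 116 to 107 bases before that of Ifnb1. A kB motif was found in 2.68% of all 32851 promoters of the table and in 6.41% of the 437 promoters of genes called higher by a log2 of at least 3. Among listed genes it was held by 5 of 22 cytokine promoters and 5 of 12 chemokine promoters. These are matches of letters and describe no binding.

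Cytokine genes rose as a group, and most stood below their level with LPS alone. Of 24 tested members of a list of 25 inflammatory cytokines, 23 were called higher and 0 lower against control, beside 29.6% and 28.1% of all genes, with a median log2 of 6.15 (5.80 with the 3 members that had no control count set at their bound) where the median gene was at −0.00. Tnf, the central inflammatory cytokine, had 2789.8 and 2966 CPM with LPS+HCl, 11339.9 and 10599.6 CPM with LPS, and 29.3 and 29.4 CPM in control. Its libraries fell into 3 separate levels, and the log2 was 6.61 against control (SE 0.26) and −1.93 against LPS (SE 0.20). Il6 had 855 and 800.5 CPM and Il12b 765 and 705 CPM with LPS alone, and their log2 against LPS was −2.99 and −3.38, so both were lower with LPS+HCl by several fold. Il1a and Il1b were lower by log2 −1.91 and −1.86 against LPS. Csf1, the macrophage growth factor, had 408 and 434 CPM with LPS+HCl, 1264 and 1224 CPM with LPS, and 17.3 and 19.4 CPM in control. Il15, a cytokine that sustains natural killer cells, had 184 and 173 CPM with LPS+HCl, 401 and 384 CPM with LPS, and 9.42 and 9.82 CPM in control. Tnfsf10, the death ligand TRAIL, had 139 and 136 CPM with LPS+HCl, 256 and 264 CPM with LPS, and 1.29 and 1.92 CPM in control. All of these lay between control and LPS without overlap. The test of the difference between LPS+HCl and LPS called 17 cytokines lower and 4 higher, beside 20.8% of all genes lower and 18% higher in that comparison. The largest adjusted p among the 8 genes just named was 0.000576 against LPS, that of Tnf, by edgeR's quasi-likelihood F test and Benjamini-Hochberg adjustment.

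Some cytokines did not follow Tnf and Il6. Tnfsf9, a costimulatory ligand of the TNF family (4-1BB ligand), had 489 and 458 CPM with LPS+HCl, 202 and 208 CPM with LPS, and 23.1 and 23.8 CPM in control and was higher than with LPS alone (log2 1.21, SE 0.07). Il10, which restrains inflammation, had 22.6 and 28.8 CPM with LPS+HCl, 17 and 17.5 CPM with LPS, and 0.283 and 0.682 CPM in control. It rose against control and was slightly higher than with LPS (log2 0.57, adjusted p = 0.0378 by edgeR's quasi-likelihood F test and Benjamini-Hochberg adjustment), a call that was lost without LPS+HCl replicate 2 (log2 0.39), without either LPS library (log2 0.55 and 0.59), without both brain libraries (log2 0.39) and under DESeq2 (log2 0.56). Ifnb1 stood at 22.2 and 25.4 CPM with LPS alone, and its log2 of 0.50 against LPS (SE 0.37) was not called. The fit shares its spread with the other groups. Ifnb1 was called with the libraries of the contrast alone (log2 0.52), and without either of the 2 lactic acid libraries without LPS the same log2 of 0.50 was called (adjusted p = 0.00122 and 0.00126 by edgeR's quasi-likelihood F test and Benjamini-Hochberg adjustment). Csf2, the granulocyte-macrophage growth factor, was the opposite case, with 1.39 and 1.16 CPM with LPS+HCl, 49.1 and 43.4 CPM with LPS, and 0 and 0 CPM in control. It rose above the silent control by at least 21.1-fold yet had the lowest log2 against LPS of all named genes (−5.17, SE 0.23).

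Of 17 tested chemokines in a list of 20, 16 were called higher and 0 lower against control (1 lower under total counts), with a median log2 of 6.22, or 6.02 with the member that had no control count at its bound. Cxcl10, a T cell chemokine induced by interferon, had 11628 and 10950.2 CPM with LPS+HCl, against 9.26 and 14.2 CPM in control (log2 9.91). Per length it was the third most abundant messenger RNA of the table with LPS+HCl, at 19185 and 18626 TPM, against 22.5 and 33.9 TPM in control. Chemokine genes together took 6.02% and 5.9% of all TPM with LPS+HCl, 9.68% and 9.4% with LPS, and 0.161% and 0.147% in control. Ccl2, the monocyte chemokine, had 1513 and 1484 CPM with LPS+HCl, 2443 and 2406 CPM with LPS, and 61.9 and 57.2 CPM in control. Cxcl9, induced by interferon, had 79.2 and 82.4 CPM with LPS+HCl, 475 and 532 CPM with LPS, and 0.121 and 0.2 CPM in control. Cxcl1, a neutrophil chemokine, had 55.9 and 72.8 CPM with LPS+HCl, 519.6 and 461 CPM with LPS, and 0.0404 and 0.2 CPM in control. In all 3 the LPS+HCl libraries lay between the other groups. Cx3cl1, a membrane-bound chemokine, had 109 and 109.5 CPM with LPS+HCl, against 8.21 and 6.78 CPM in control. Cxcl16, a chemokine and scavenger receptor, had 748 and 734 CPM with LPS+HCl, 735 and 692 CPM with LPS, and 142 and 146 CPM in control, and its LPS+HCl and LPS libraries overlapped. Against LPS 12 chemokines were called lower and 0 higher (under total counts 11 lower and 1 higher), and Cxcl10 was not called (log2 −0.36, SE 0.22), though it was without either lactic acid library (log2 −0.36 in both) and with the libraries of the contrast alone (log2 −0.33). Ccl17, a chemokine for type 2 helper T cells, and Cxcl2, a neutrophil chemokine, had the lowest log2 of the list against LPS, at −4.85 and −3.18. Ccl17 had 1.17 and 1.05 CPM with LPS+HCl, 35.5 and 28.9 CPM with LPS, and 0 and 0 CPM in control, at least 18.4-fold higher than control, and Cxcl2 had 268 and 391 CPM with LPS+HCl, 3133 and 2861 CPM with LPS, and 5.09 and 5.05 CPM in control.

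**Figure D2:**
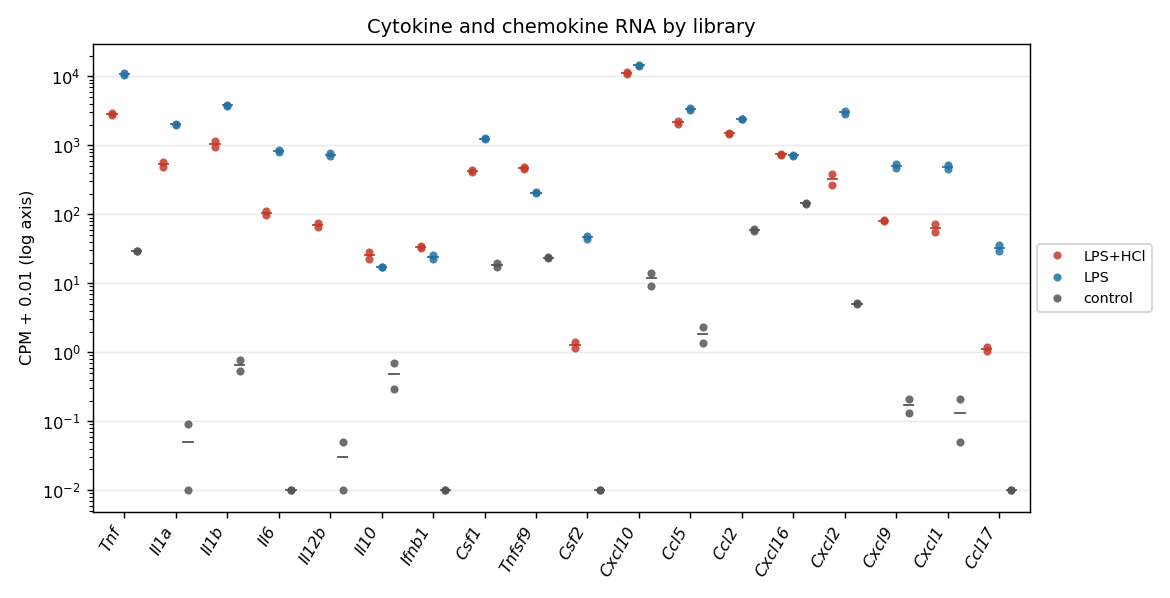
CPM + 0.01 on a log axis (y axis) of 18 cytokine and chemokine genes (x axis), 1 point per library, with a line at the mean of the 2 libraries of LPS+HCl, LPS and control. For Tnf, Il6 and Il12b the LPS+HCl points lie between LPS and control, and for Tnfsf9 they lie above both.

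Cd14, the co-receptor that hands LPS to TLR4, had 5006 and 4869 CPM with LPS+HCl, 2539 and 2537 CPM with LPS, and 335 and 369 CPM in control. It rose by a log2 of 3.81 (SE 0.07) and was higher than with LPS (log2 0.96, SE 0.07). Tlr4 itself had 31.4 and 35.2 CPM with LPS+HCl, 47.2 and 53.1 CPM with LPS, and 108 and 96 CPM in control and fell (log2 −1.61, SE 0.10), further than with LPS alone (log2 against LPS −0.59). Myd88, the adaptor of most Toll-like receptors, had 356 and 349 CPM with LPS+HCl, against 65.4 and 70.9 CPM in control (log2 2.37), and Irak2, a kinase of the Myd88 complex, had 248 and 254 CPM with LPS+HCl, against 43.6 and 47.4 CPM in control (log2 2.46). Of 17 tested members of the list, 8 were called higher and 4 lower, beside 29.6% and 28.1% of all genes. Fewer were lower under TMM without LPS+HCl replicate 1. Under total counts 5 were higher and 9 lower, beside 14.9% and 56.9%. Among 10 other Toll-like receptor genes 6 were called higher and 4 lower, beside 29.6% and 28.1% of all genes. Tlr2, the receptor for bacterial lipoproteins, had 1628 and 1544 CPM with LPS+HCl, against 101 and 98.7 CPM in control (log2 3.99), and Tlr3, the receptor for double-stranded RNA, had 138 and 137 CPM with LPS+HCl, against 22.4 and 21 CPM in control (log2 2.66). Tlr13, which senses bacterial ribosomal RNA in mice, fell to 59.2 and 56.3 CPM, against 380.3 and 378 CPM in control (log2 −2.71). Tlr7, a receptor for single-stranded RNA, had 78.6 and 87.1 CPM with LPS+HCl, 238 and 245 CPM with LPS, and 140.5 and 133 CPM in control. With LPS+HCl it was below control (log2 −0.72), while with LPS alone it was above (log2 0.82, and 0.10 and not called under total counts, in a comparison that shares the control libraries), and the difference between LPS+HCl and LPS was called (log2 −1.54).

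All 16 NF-kB subunits and inhibitors were called higher, 13 of them under total counts, with a median log2 of 2.80. Nfkbiz, a nuclear co-activator of Il6, had 802 and 849.9 CPM in LPS+HCl libraries, against 12 and 10.7 CPM in control libraries (log2 6.18), and Nfkbia, which holds NF-kB in the cytoplasm, had 1955 and 1874 CPM in LPS+HCl libraries, against 61 and 67.9 CPM in control libraries (log2 4.89). Nfkb2, a subunit of the non-canonical arm, and Bcl3, a nuclear partner of NF-kB subunits, rose by log2 3.17 and 4.43. Against LPS 11 members were called lower and 1 higher (6 and 2 under total counts), with a list median of −0.36 where that of the cytokines was −1.17. Under TMM the higher one was Bcl3 (log2 0.29), a call that was lost without LPS+HCl replicate 1 (log2 0.19) and without either LPS library (log2 0.29 and 0.27). Of 23 feedback inhibitors, 18 were called higher and 4 lower, beside 29.6% and 28.1% of all genes. Under total counts 16 were higher and 5 lower, beside 14.9% and 56.9%. Against LPS 4 feedback inhibitors were called higher and 9 lower, beside 18% and 20.8%. Under total counts this turned to 11 and 7, beside 37.1% and 10.7%. Socs3, which blocks cytokine receptor signalling, had 2680.5 and 2620.1 CPM with LPS+HCl, 2375 and 2435 CPM with LPS, and 6.39 and 7.54 CPM in control. It rose by a log2 of 8.57, and its log2 of 0.14 against LPS was not called (0.38 and called under total counts, and 0.16 and called with the 4 libraries of the contrast alone). Tnfaip3, the ubiquitin-editing enzyme A20, had 1663 and 1723 CPM with LPS+HCl, against 25.9 and 24.7 CPM in control (log2 6.06). Cish, another SOCS family member, had 181 and 191 CPM with LPS+HCl, against 1.29 and 0.922 CPM in control (log2 7.39), and Traf1, a TNF receptor adaptor, had 346 and 349 CPM with LPS+HCl, against 7.36 and 8.42 CPM in control (log2 5.46). Dusp1, the phosphatase that switches off p38 MAP kinase, had 757 and 726 CPM with LPS+HCl, 342 and 356 CPM with LPS, and 24.1 and 24.1 CPM in control, higher than in both other groups (log2 1.09 against LPS, SE 0.08). Members that fell were led by Sh2b3, an adaptor that restrains cytokine signals (log2 −1.67), and Zfp36l1, a protein that degrades short-lived messenger RNA (log2 −1.09).

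Genes driven by interferon rose together, and most stood below their level with LPS alone. All 31 tested antiviral interferon-stimulated genes (of 33 listed) were called higher against control, under TMM and total counts alike, with a median log2 of 3.06. Ifit2, which blocks translation of viral RNA, had 2165 and 2215 CPM with LPS+HCl, 3607 and 3713 CPM with LPS, and 25.3 and 28.1 CPM in control. Ifih1, the cytoplasmic RNA sensor MDA5, had 805 and 848 CPM with LPS+HCl, 1424 and 1428 CPM with LPS, and 41.4 and 40.7 CPM in control. Usp18, which damps interferon receptor signals, had 332 and 319 CPM with LPS+HCl, 676 and 671 CPM with LPS, and 15.5 and 17.4 CPM in control. In each of the 3 genes the LPS+HCl libraries were higher than control and lower than LPS with no overlap. Against LPS 27 members were called lower and 0 higher (20 and 0 under total counts), with a median log2 of −0.69. Guanylate-binding proteins and immunity-related GTPases, which attack membranes around microbes, showed the same order. Of 15 members 14 were called higher and 0 lower against control (median log2 4.70), and 14 were called lower and 0 higher against LPS under both scalings. Several members are close paralogs, and how the deposited counting split their reads was not given in the sources used here. Gbp2 had 749 and 681 CPM with LPS+HCl, 1885 and 1912 CPM with LPS, and 14.6 and 15.6 CPM in control. Gbp3 had 266 and 261 CPM with LPS+HCl, 638 and 626 CPM with LPS, and 4.24 and 5.97 CPM in control. Irgm1 had 673 and 630.4 CPM with LPS+HCl, against 68.2 and 71 CPM in control (log2 3.23), and Igtp had 316 and 312 CPM with LPS+HCl, against 18.8 and 19 CPM in control (log2 4.05). The interferon motif was found in 3.44% of all promoters of the table, in 13 of 27 promoters of the antiviral list and in 9 of 10 of the guanylate-binding list. It was also found in 4 of 22 promoters of the ribosomal protein list, so it is not particular to interferon lists. Among promoters of genes called higher by a log2 of at least 3 it was found in 13.3%, and in 2.22% for genes called lower by a log2 of at least 1.

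Among 23 interferon regulatory factors, STATs and Janus kinases, 19 were called higher and 0 lower (18 and 4 under total counts). Irf1, which activates class I antigen presentation, had 548 and 561 CPM with LPS+HCl, 799.6 and 795 CPM with LPS, and 30.2 and 29.3 CPM in control. Stat5a had 365 and 356 CPM with LPS+HCl, against 42.4 and 42.4 CPM in control. Jak2, a kinase of cytokine receptors, had 461 and 473 CPM with LPS+HCl, against 23 and 23.3 CPM in control. Irf8, a factor of the macrophage and dendritic lineages, had 859 and 805 CPM with LPS+HCl, against 95.6 and 102 CPM in control. Log2 values of the 4 genes were 4.22, 3.09, 4.33 and 3.07, and in none of them did LPS+HCl and control overlap.

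Effector genes rose to a wide range of levels. Of 27 tested antimicrobial and prostanoid effectors, 23 were called higher and 1 lower (20 and 3 under total counts), with a median log2 of 3.57. Acod1, which makes the antimicrobial metabolite itaconate, had 8535 and 8487 CPM with LPS+HCl, against 15.3 and 16.4 CPM in control (log2 9.07, SE 0.41), and against LPS it was not called (log2 −0.52), though it was without either lactic acid library (log2 −0.52 in both) and with the libraries of the contrast alone (log2 −0.50). Ptgs2, the inducible cyclooxygenase, had 679 and 855 CPM with LPS+HCl, 2979 and 2947 CPM with LPS, and 0.97 and 0.962 CPM in control. Nos2 had 1832 and 1936 CPM with LPS alone. Both were lower than with LPS, by log2 −1.95 and −1.93. Ptges, the synthase that turns the cyclooxygenase product into prostaglandin E2, had 111 and 122 CPM with LPS+HCl, 51.4 and 50.6 CPM with LPS, and 0.768 and 1.4 CPM in control and was higher than with LPS (log2 1.19). Sod2, the mitochondrial superoxide dismutase, rose by a log2 of 3.08 and Clec4e, a receptor for mycobacterial glycolipid, by 3.60. Arg1, an arginase of alternatively activated macrophages, was too low to be tested. Odc1, the first enzyme of polyamine synthesis from arginine products, had 373 and 345 CPM with LPS+HCl, 168 and 164 CPM with LPS, and 55.5 and 55.1 CPM in control and exceeded both other groups (log2 1.11 against LPS).

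Of 13 inflammasome genes 10 were called higher and 1 lower, beside 29.6% and 28.1% of all genes, and 9 and 3 under total counts. Nlrp3, the sensor of membrane damage, had 411 and 437 CPM with LPS+HCl, 946 and 967 CPM with LPS, and 78.1 and 78.8 CPM in control. Casp4, the intracellular LPS sensor caspase 11 of mice, had 119 and 117 CPM with LPS+HCl, against 16 and 14.9 CPM in control. Casp1 had 157 and 136 CPM with LPS+HCl, against 57.1 and 51.6 CPM in control. Nlrp1b, a sensor of pathogen proteases, fell (log2 −0.89). Of 24 tested genes of antigen presentation and costimulation, 21 were called higher and 0 lower, and 20 and 2 under total counts. Icam1, an adhesion molecule, had 2621 and 2577 CPM with LPS+HCl, 4398 and 4378 CPM with LPS, and 91.8 and 100.3 CPM in control. Cd40, the receptor for T cell help, had 305 and 313 CPM with LPS+HCl, 877 and 861 CPM with LPS, and 3.19 and 3.69 CPM in control. Cd274, the checkpoint ligand PD-L1, had 576 and 572 CPM with LPS+HCl, against 11.7 and 9.22 CPM in control. Tap1, the peptide transporter of class I presentation, had 530.2 and 515 CPM with LPS+HCl, against 99.8 and 104 CPM in control. All 4 lay above control without overlap, and 19 members of the list were called lower than with LPS and 0 higher (13 and 2 under total counts). Of 16 genes of the BCL2 family and its survival partners, 12 were called higher and 2 lower, beside 29.6% and 28.1% of all genes. Under total counts 7 were higher and 6 lower, beside 14.9% and 56.9%. Cflar, which blocks caspase 8, had 819 and 829.5 CPM with LPS+HCl, against 58.8 and 55.7 CPM in control. Birc3, an inhibitor of apoptosis, had 379 and 386 CPM with LPS+HCl, against 28 and 26.9 CPM in control. Bmf and Bid, which promote cell death, fell (log2 −1.74 and −1.29). With LPS alone Bmf was lower still (log2 −5.60 against control), and its log2 of LPS+HCl over LPS was 3.86, the greatest of the list. Against LPS 2 members of the list were called higher and 11 lower, beside 18% and 20.8% of all genes. Under total counts these were 4 and 8, beside 37.1% and 10.7%.

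**Figure D3:**
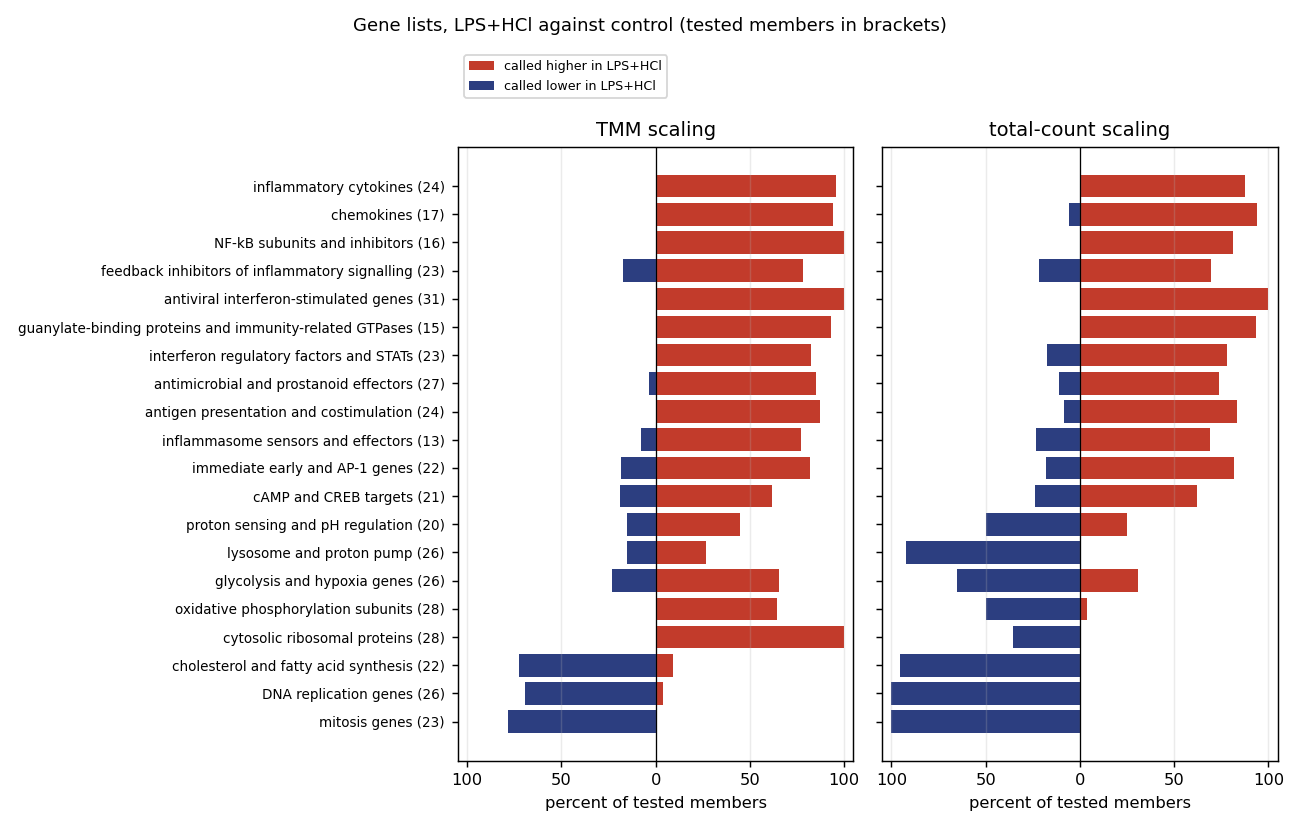
Percent of the tested members of 20 gene lists (y axis, number of tested members in brackets) called higher (right of 0) or lower (left of 0) with LPS+HCl against control, with TMM scaling in the left panel and total-count scaling in the right panel. The inflammatory and interferon lists keep their direction in both panels, while the ribosomal list has 28 members higher with TMM scaling and 10 lower under total counts.

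The 10 greatest falls were in genes of varied function, receptors and transcription regulators among them. Cnr2, the cannabinoid receptor of immune cells, had 1.45 and 1.38 CPM in LPS+HCl libraries, against 38.3 and 39.4 CPM in control libraries (log2 −4.77, SE 0.27). Mnt, a transcription factor that opposes MYC, had 4.95 and 3.2 CPM in LPS+HCl libraries, against 93.5 and 106 CPM in control libraries (log2 −4.61, SE 0.16). Lpar5, a receptor for lysophosphatidic acid, had 2.28 and 0.994 CPM in LPS+HCl libraries, against 37.7 and 41.4 CPM in control libraries (log2 −4.59, SE 0.23). In all 3 genes the groups were far apart. Sesn1, a sestrin that restrains the growth kinase mTORC1, had 7.12 and 5.69 CPM in LPS+HCl libraries, against 114 and 115 CPM in control libraries. Fgd4, an activator of the GTPase CDC42, had 6.4 and 5.52 CPM in LPS+HCl libraries, against 100.3 and 91 CPM in control libraries. Cdca7, a gene of cycling cells, had 1.56 and 1.16 CPM in LPS+HCl libraries, against 22.3 and 24.3 CPM in control libraries. Cbfa2t3, a transcriptional co-repressor, had 0.278 and 1.49 CPM in LPS+HCl libraries, against 11.5 and 15.6 CPM in control libraries. Slc26a11, an anion transporter, had 3.89 and 2.15 CPM in LPS+HCl libraries, against 42 and 40.8 CPM in control libraries. Fam78a had 2.23 and 1.27 CPM with LPS+HCl, 0.0648 and 0.33 CPM with LPS, and 32.7 and 32.2 CPM in control. Ccsap, a protein of centrioles and the spindle, had 1.28 and 1.88 CPM with LPS+HCl, 0.324 and 0.397 CPM with LPS, and 18.8 and 19.9 CPM in control. Both were higher than with LPS alone (log2 3.11 and 2.11), as was Sesn1 (log2 1.09), which had 2.85 and 3.17 CPM with LPS. Fgd4 was lower than with LPS (log2 −1.52, SE 0.14), where it had 16.8 and 17.4 CPM. For 2 of the falls the size rested on 1 library: without LPS+HCl replicate 1 the log2 was −5.31 for Lpar5 and −3.18 for Cbfa2t3, and without LPS+HCl replicate 2 it was −5.57 for Cbfa2t3. The largest adjusted p of the 10 falls was 3.98e-05, that of Cbfa2t3, by edgeR's quasi-likelihood F test and Benjamini-Hochberg adjustment.

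Genes of the cell cycle fell. Of 26 DNA replication genes 18 were called lower and 1 higher, and of 23 mitosis genes 18 lower and 0 higher, beside 28.1% of all genes lower. Under total counts all 26 and 23 were called lower, beside 56.9% of all genes. Cdc6, which loads the replicative helicase, had 3.56 and 3.42 CPM with LPS+HCl, 0.907 and 1.72 CPM with LPS, and 26.8 and 27 CPM in control. Cdt1, its partner in origin licensing, had 26 and 24.6 CPM with LPS+HCl, 18.5 and 17.6 CPM with LPS, and 88.8 and 107 CPM in control. E2f2, a transcription factor of the G1 to S transition, had 18.3 and 17.9 CPM with LPS+HCl, 2.79 and 4.3 CPM with LPS, and 73.5 and 75.9 CPM in control. Kif20a, a kinesin of cytokinesis, had 62.3 and 61.4 CPM with LPS+HCl, 41.6 and 42.7 CPM with LPS, and 144 and 142 CPM in control. Cenpf, a kinetochore protein, had 31.8 and 35.9 CPM with LPS+HCl, 21.3 and 21.5 CPM with LPS, and 86.4 and 86.8 CPM in control. In each of these the LPS+HCl libraries lay between control and LPS. Against LPS 12 replication genes were called higher and 2 lower, and 13 mitosis genes higher and 1 lower, beside 18% and 20.8% of all genes. Under total counts these were 20 and 1 replication genes and 21 and 0 mitosis genes, beside 37.1% and 10.7%. Cdkn1a, the cell cycle inhibitor p21, rose to 2176 and 2119 CPM, against 362 and 364 CPM in control, and Ccnd1, the cyclin of the growth factor response, fell to 246 and 240.1 CPM, against 458 and 429 CPM in control. Ccnd1 had 99.6 and 112 CPM with LPS alone and was thus higher with LPS+HCl (log2 1.20). Bulk RNA cannot tell fewer cycling cells from less RNA per cell.

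Genes of lipid synthesis also fell. Of 22 genes of cholesterol and fatty acid synthesis, 16 were called lower and 2 higher (21 and 0 under total counts), beside 28.1% of all genes lower and 29.6% higher. Scd2, a fatty acid desaturase, had 142 and 135 CPM with LPS+HCl, 63.6 and 65 CPM with LPS, and 688 and 671 CPM in control. Fasn, the fatty acid synthase, had 51.2 and 58.7 CPM with LPS+HCl, 74.2 and 80.3 CPM with LPS, and 191 and 217 CPM in control. Both fell against control (log2 −2.30 and −1.89), but against LPS Scd2 was higher (log2 1.11) and Fasn lower (log2 −0.49). Against LPS 3 genes of the list were called higher and 9 lower, beside 18% and 20.8% of all genes. Under total counts these were 6 and 5, beside 37.1% and 10.7%. Sqle and Dhcr7, enzymes of the cholesterol pathway, fell against control by log2 −1.27 and −1.36. The macrophage identity list was split, with 10 of 21 tested members called higher and 7 lower (4 and 14 under total counts), beside 29.6% and 28.1% of all genes (14.9% and 56.9% under total counts). Cebpa and Maf, transcription factors of the list, fell. Cebpa had 12.5 and 11 CPM with LPS+HCl, against 89.4 and 108 CPM in control. Maf had 106 and 95.5 CPM with LPS+HCl, 341 and 352 CPM with LPS, and 459.8 and 426 CPM in control. Maf was far lower with LPS+HCl than with LPS (log2 −1.78, SE 0.08), where Cebpa was higher (log2 1.06). Spi1, the lineage factor PU.1, and Axl, a receptor for apoptotic cells, rose (log2 0.87 and 1.17).

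Set directly against LPS, acidified cultures differed in 4742 of 12213 genes (38.8%), 2201 higher and 2541 lower, and 702 (5.75%) were higher and 405 (3.32%) lower by a log2 of at least 1. Total-count scaling, which moved the median log2 of this comparison by 0.24, gave 4535 higher (37.1%) and 1310 lower (10.7%). Among genes also called against control, 7 of the 8 greatest rises over LPS followed 1 of 2 patterns, drawn after their values were seen, and Fhod1 neither. Nr4a1, an early-response nuclear receptor, had 25.2 and 27.7 CPM with LPS+HCl, 1.94 and 1.59 CPM with LPS, and 3.44 and 3.33 CPM in control. It was higher with LPS+HCl than in control (log2 2.96, SE 0.13) and than with LPS (log2 3.90, SE 0.17), while LPS alone stood below control (log2 −0.93). Vegfa, the growth factor of blood vessels, had 72.5 and 79.8 CPM with LPS+HCl, 8.1 and 7.07 CPM with LPS, and 36.1 and 36.9 CPM in control. Fbxo40, an F-box protein, had 27.9 and 34.1 CPM with LPS+HCl, 2.53 and 2.51 CPM with LPS, and 0.647 and 0.962 CPM in control. Both exceeded control and LPS in every library. In the other pattern, S1pr1, a receptor for sphingosine 1-phosphate, had 35.3 and 38.1 CPM with LPS+HCl, 3.18 and 4.16 CPM with LPS, and 107 and 103 CPM in control. Cxcr4, the receptor for CXCL12, had 15.8 and 11.7 CPM with LPS+HCl, 1.17 and 1.65 CPM with LPS, and 78.5 and 82.1 CPM in control. Arl4c, a small GTPase, had 73.2 and 79.5 CPM with LPS+HCl, 8.62 and 9.25 CPM with LPS, and 211 and 233 CPM in control. These were below control with LPS+HCl (log2 −1.52, −2.55 and −1.54) but far above LPS (log2 3.32, 3.28 and 3.09), and Plekhg3 followed them (log2 −1.45 against control and 3.31 against LPS). Fhod1, a formin that bundles actin, had 79.3 and 84.1 CPM with LPS+HCl, 9.59 and 11.2 CPM with LPS, and 66.3 and 74 CPM in control, above LPS (log2 2.97). Against control its log2 of 0.22 was −0.26 under total counts, and the call was lost without LPS+HCl replicate 1 (log2 0.26), LPS+HCl replicate 2 (0.18) or control replicate 1 (0.14), and without both brain libraries (0.10).

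The 8 greatest falls below LPS were mostly in induced genes for secreted or surface proteins, namely Csf2, Ccl17, Il12b, Cxcl2, Sele, Edn1, Lox and Lad1. Edn1, the vasoconstrictor endothelin 1, had 18.1 and 21.7 CPM with LPS+HCl, 270.3 and 249 CPM with LPS, and 0.0404 and 0.0802 CPM in control (log2 −3.71 against LPS, SE 0.11). Sele, an adhesion molecule better known from endothelium, had 1.72 and 1.16 CPM with LPS+HCl, 28.2 and 29.1 CPM with LPS, and 0 and 0 CPM in control. Lad1, a basement membrane protein, had 1.61 and 2.43 CPM with LPS+HCl, 46.1 and 46.3 CPM with LPS, and 0.243 and 0.241 CPM in control. Lox, an enzyme that crosslinks collagen, had 0.723 and 2.15 CPM with LPS+HCl, 20.0 and 17.1 CPM with LPS, and 0.162 and 0.281 CPM in control. All 4 were called higher than control, from low control levels. For Lox that call was lost without LPS+HCl replicate 2 (log2 1.68 against control, and −4.67 against LPS) or control replicate 1 (log2 2.33), and without both brain libraries (log2 1.35), against log2 2.67 with all libraries. Against a floor of 3 counts Sele was at least 23.9-fold higher than control, and for Edn1 the ratio of counts against control was 329.6 (95% counting interval 112 to 1602). The largest adjusted p of the 16 genes against LPS was 0.000534, that of Cxcl2, by edgeR's quasi-likelihood F test and Benjamini-Hochberg adjustment.

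**Figure D4:**
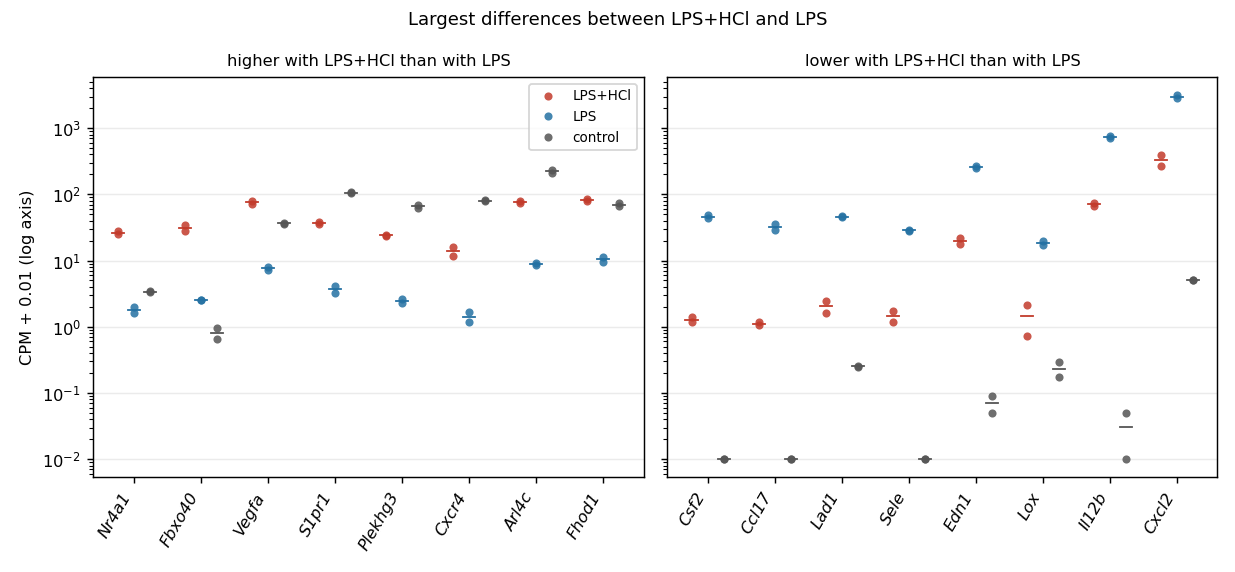
CPM + 0.01 on a log axis (y axis) of the 8 genes highest (left panel) and the 8 lowest (right panel) with LPS+HCl relative to LPS (x axis), 1 point per library, with a line at the mean of each group's 2 libraries. Nr4a1, Fbxo40 and Vegfa lie above both other groups with LPS+HCl, while S1pr1, Cxcr4 and Arl4c lie between them.

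Of 22 immediate early and AP-1 genes 18 were called higher than control and 4 lower, with both scalings, beside 29.6% and 28.1% of all genes. Against LPS 7 were called higher and 11 lower, beside 18% and 20.8%. Under total counts these were 8 and 8, beside 37.1% and 10.7%. Fos, an AP-1 subunit, had 193 and 184 CPM with LPS+HCl, 22.7 and 25.4 CPM with LPS, and 42.3 and 43.4 CPM in control and followed Nr4a1 (log2 2.97 against LPS, SE 0.10). Junb, its partner, had 1234 and 1238 CPM with LPS+HCl, against 81.9 and 96.7 CPM in control. Batf, an AP-1 factor of immune cells, had 28.3 and 26 CPM with LPS+HCl, against 2.95 and 3.25 CPM in control. Klf2 and Klf4, factors that quiet inflammation, and Myc, the proliferation factor, fell (log2 −1.92, −1.53 and −1.04). Of 21 tested targets of cAMP and CREB, 13 were called higher than control and 4 lower (13 and 5 under total counts). Against LPS 9 were called higher and 7 lower, beside 18% and 20.8% of all genes. Under total counts these were 10 and 5, beside 37.1% and 10.7%. Adora2b, an adenosine receptor that raises cAMP, had 49.3 and 52.1 CPM with LPS+HCl, 17.9 and 19.6 CPM with LPS, and 2.38 and 2.45 CPM in control, above both other groups. Pde4b, which breaks cAMP down, had 234 and 233 CPM with LPS+HCl, 392 and 367 CPM with LPS, and 10.2 and 9.82 CPM in control. Nr4a3, a relative of Nr4a1, had 58.2 and 65.4 CPM with LPS+HCl, 115 and 119 CPM with LPS, and 0.566 and 0.2 CPM in control, both between control and LPS. Rgs2, a brake on G protein signals, had 29.7 and 26.1 CPM with LPS+HCl, 78.5 and 78.2 CPM with LPS, and 141 and 131 CPM in control and fell below both (log2 −2.28 against control and −1.49 against LPS).

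Of 20 tested receptors for nucleotides and lipid mediators 11 were called higher and 6 lower (8 and 9 under total counts), beside 29.6% and 28.1% of all genes (14.9% and 56.9%). P2ry6, a receptor for UDP, had 635 and 614 CPM with LPS+HCl, 181 and 189 CPM with LPS, and 236 and 249.8 CPM in control, with LPS+HCl above control (log2 1.36) and LPS below it (log2 −0.39), and the 2 stimulated groups differed by a log2 of 1.76 (SE 0.07). Adora2a, another adenosine receptor, had 24.5 and 22.7 CPM with LPS+HCl, 79.1 and 80.2 CPM with LPS, and 0.0404 and 0 CPM in control, a ratio of counts of 1173 (95% counting interval 210.0 to 46392) over control. P2ry1, a receptor for ADP, had 0.668 and 0.497 CPM with LPS+HCl, 3.11 and 3.5 CPM with LPS, and 6.43 and 6.7 CPM in control, the lowest of the 3 groups. Ptger4, a prostaglandin E2 receptor that raises cAMP, rose by a log2 of 2.02. Olr1, a receptor for oxidised lipoprotein, had 64.5 and 72.2 CPM with LPS+HCl, 12.2 and 11.8 CPM with LPS, and 0.283 and 0.0802 CPM in control. Fcgr2b, the inhibitory Fc receptor, had 375 and 381 CPM with LPS+HCl, 773 and 725 CPM with LPS, and 81.2 and 86.8 CPM in control. Olr1 was higher than with LPS (log2 2.50, SE 0.14) and Fcgr2b lower (log2 −0.99, SE 0.07). Fpr1, a receptor for bacterial formyl peptides, had 3.67 and 4.53 CPM with LPS+HCl, 25.7 and 29.3 CPM with LPS, and 0.202 and 0.12 CPM in control. Fpr2, its relative, had 10.2 and 11.1 CPM with LPS+HCl, 41.1 and 41.2 CPM with LPS, and 0.283 and 0.12 CPM in control, and both lay between control and LPS. Ccrl2, which binds the chemoattractant chemerin, had 179 and 162 CPM with LPS+HCl, 524 and 505 CPM with LPS, and 4.41 and 5.17 CPM in control.

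Of 20 tested genes that sense or move protons, 9 were called higher and 3 lower, beside 29.6% and 28.1% of all genes. Under total counts 5 were higher and 10 lower, beside 14.9% and 56.9%. Gpr65, the proton-sensing receptor that raises cAMP, had 34.2 and 32.4 CPM with LPS+HCl, 20.0 and 17.1 CPM with LPS, and 34.8 and 32.4 CPM in control. Its LPS+HCl and control libraries overlapped (log2 −0.01, SE 0.10, not called, and −0.50 and called under total counts), and it was higher than with LPS (log2 0.84, SE 0.11). Gpr132, a related receptor, had 63 and 69.5 CPM with LPS+HCl, 102 and 101 CPM with LPS, and 10.6 and 10.8 CPM in control. Slc4a7, a bicarbonate importer, had 243 and 259.9 CPM with LPS+HCl, against 40.4 and 36.5 CPM in control. Car13, a cytosolic carbonic anhydrase, had 165 and 154 CPM with LPS+HCl, against 26.2 and 25.7 CPM in control (log2 2.62), and Hvcn1, the voltage-gated proton channel, fell (log2 −0.85). Slc16a3, the exporter of lactate with a proton, had 162 and 174 CPM with LPS+HCl, 203 and 203 CPM with LPS, and 124 and 151 CPM in control and was called higher than control (log2 0.29), but the sign turned under total counts (−0.19) and the call was lost without LPS+HCl replicate 2 (log2 0.24) or control replicate 1 (log2 0.15), and without both brain libraries (log2 0.10). In the list of lysosomal proteins and the proton pump 7 of 26 were called higher and 4 lower, and under total counts 0 and 24, with 4 higher under TMM without LPS+HCl replicate 1. The TMM shares are no greater than the 29.6% and 28.1% of all genes. Tfeb, the transcription factor of lysosome genes, had 7.62 and 8.12 CPM with LPS+HCl, 3.3 and 3.44 CPM with LPS, and 36.9 and 43 CPM in control (log2 −2.34). Atp6v0a1, a subunit of the vacuolar proton pump, had 251 and 250.0 CPM with LPS+HCl, 571 and 599 CPM with LPS, and 520.0 and 549.5 CPM in control. Atp6v1b2, another subunit of that pump, had 189 and 187 CPM with LPS+HCl, 359 and 355 CPM with LPS, and 272 and 276 CPM in control. Both pump subunits were lower with LPS+HCl than in either other group (log2 −1.22 and −0.93 against LPS). Abcg1, a cholesterol exporter, showed the same order, with 87 and 81 CPM with LPS+HCl, 233 and 247 CPM with LPS, and 189 and 191 CPM in control.

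Of 19 genes of the integrated stress response driven by ATF4, 6 were called higher and 8 lower, beside 29.6% and 28.1% of all genes, and 4 and 12 under total counts. Slc7a11, the cystine importer, and Nupr1, a stress-induced chromatin protein, rose (log2 4.38 and 3.94), while Sesn2, a sestrin, and Ddit3, the death-linked factor CHOP, fell (log2 −1.80 and −1.72). Of 14 heat shock chaperones, a separate list, 8 were called higher and 3 lower than control, and 5 and 7 under total counts. Against LPS 2 were called higher and 4 lower, beside 18% and 20.8% of all genes. Under total counts these were 6 and 0, beside 37.1% and 10.7%. On that list Bag3, a co-chaperone, had 169 and 183 CPM with LPS+HCl, 70.5 and 72.3 CPM with LPS, and 91.1 and 99.6 CPM in control, higher than in both other groups. Of 26 glycolysis and hypoxia genes 17 were called higher and 6 lower, beside 29.6% and 28.1% of all genes, and fewer were higher without control replicate 1. Under total counts the list turned over, with 8 higher and 17 lower, beside 14.9% and 56.9%. Pfkfb3, which makes the activator of phosphofructokinase, had 250.1 and 253 CPM with LPS+HCl, against 21.1 and 21.2 CPM in control (log2 3.57), and Hk2, a hexokinase, had 323 and 326 CPM with LPS+HCl, 193 and 216 CPM with LPS, and 38.9 and 40.5 CPM in control (log2 3.03). Hif1a, the hypoxia factor, rose by a log2 of 1.81. Ldha, lactate dehydrogenase, had 829.9 and 899 CPM with LPS+HCl, against 708 and 798 CPM in control and was called higher (log2 0.20), with a sign that turned under total counts (−0.28) and a call that was lost without LPS+HCl replicate 2 (log2 0.14) or control replicate 1 (log2 0.11), and without both brain libraries (log2 0.056). Txnip, which restrains glucose uptake, had 266 and 241 CPM with LPS+HCl, 146 and 159.9 CPM with LPS, and 369 and 377 CPM in control, below control (log2 −0.56) and above LPS (log2 0.73). All 28 of 28 ribosomal protein genes were called higher under TMM by a log2 of 0.22 to 0.61, against 0 higher and 10 lower under total counts. Of 28 oxidative phosphorylation subunits 18 were called higher and 0 lower under TMM, and 1 and 14 under total counts, with 10 higher under TMM without LPS+HCl replicate 1, so that no direction is given for these 2 lists. Of 24 tested chromatin regulators 11 were called higher and 8 lower, but 6 and 13 under total counts. Among them, Dot1l, a histone H3 methyltransferase, had 451 and 464 CPM with LPS+HCl, 184 and 178 CPM with LPS, and 119 and 139 CPM in control. Kdm6b, a histone demethylase, had 88.2 and 92.6 CPM with LPS+HCl, 63.5 and 65.5 CPM with LPS, and 7.32 and 7.14 CPM in control. Jdp2, a histone-binding AP-1 repressor, had 376 and 396 CPM with LPS+HCl, 265 and 254 CPM with LPS, and 21.7 and 21.3 CPM in control. All 3 were higher than in control and than with LPS (log2 1.34, 0.49 and 0.58 against LPS), and Dnmt3a, a DNA methyltransferase, fell (log2 −1.07).

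Relative to the other groups, named genes took several positions, grouped here after their values were seen. Tnf, Il6, Il12b, Ptgs2, Ifit2, Gbp2 and Cdc6 lay between control and LPS in every library. Cd14, Dusp1, Tnfsf9, Ptges, Odc1, Olr1 and Adora2b, all higher with LPS than in control, were higher still with LPS+HCl, and Tlr4, Rgs2, Maf and P2ry1, all lower with LPS than in control, were lower still. Nr4a1, Fos, Vegfa, P2ry6 and Bag3 stood above control with LPS+HCl and below it with LPS, and Tlr7, Abcg1 and Atp6v1b2 stood below control with LPS+HCl and, under TMM, above it with LPS. Under total counts LPS over control was a log2 of 0.10 for Tlr7 (not called), −0.38 for Abcg1 and −0.34 for Atp6v1b2, so for these 3 genes the side with LPS depends on scaling. LPS against control, in which 7914 of 12213 genes were called (64.8%; 32.4% higher and 32.4% lower), shares its control libraries with LPS+HCl against control. Under TMM the call between LPS and control held for each gene placed above or below control with LPS here, and the difference between LPS+HCl and LPS was called for each of these genes with a largest adjusted p of 0.000576 by edgeR's quasi-likelihood F test and Benjamini-Hochberg adjustment.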

How the data were processed

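RNA of bone marrow-derived macrophages was sequenced with reads of 100 bp. The deposited table holds estimated (expected) counts and TPM, a level corrected for transcript length, for 16059 genes in 10 RNA libraries, both computed by the authors. Per the submitters' processing notes the tools included HISAT and Bowtie2 on GRCm38.p6, and the counting tool was not given in the sources used here. Of the expected counts the authors deposited, 6.07% were not whole and were rounded. 29 other value columns were not used. RefSeq symbols (GRCm38.p6) matched 15959 gene IDs and replaced 23 symbols that had turned into dates.

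Genes were filtered with filterByExpr (minimum count 10, minimum total 15), scaled by TMM and fitted with edgeR 4.0.16 (R 4.3.3) over all 10 libraries, with 1 term per group, robust quasi-likelihood tests, two-sided, and Benjamini-Hochberg adjustment at 0.05 over the 12213 genes left. CPM was counts over the scaled library size, and SE was the absolute log2 over the root of F. On counts simulated for LPS+HCl against control and against LPS, false calls exceeded the nominal rate. The counts of called genes given above may therefore hold more false calls than the threshold of 0.05 states. DESeq2 1.42.0 was an alternative. Python 3.11.15 with pandas 2.3.3 and scipy 1.17.1 gave list counts, exact intervals and motif counts.

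Members and gene lists were chosen with earlier results of these data known. Genes named are the 10 greatest rises and falls against control and the 8 greatest against LPS (adjusted p under 0.05, mean of 10 CPM or more in a group, no overlap), up to 5 members with the smallest adjusted p and 3 against the majority in each list, and a panel of known genes. For control counts of 0, folds are against 3 counts over the group, and for 1 to 3 counts an exact 95% interval is given.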

Additional observations from a re-analysis of the deposited data

How the results depend on the processing

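Scaling was the setting that moved the counts of called genes. Under total counts, LPS+HCl against control gave 1819 genes higher and 6955 lower, 2711 of them lower by a log2 of at least 1, and LPS+HCl against LPS gave 4535 higher (1132 by at least 1) and 1310 lower (230 by at least 1). Under DESeq2, DESeq2-type size factors, no filter on low counts, the contrast's libraries alone and without both brain libraries, each of these counts stayed within 1.5 times. Leaving out 1 library gave 3101 to 3737 higher and 2833 to 3530 lower against control, and 1491 to 2341 higher and 1943 to 2726 lower against LPS.

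The replicate numbers are shared by the labels only. Deviations of same-numbered libraries from their group means correlated at −0.50 between LPS+HCl and control and at −0.05 to 0.05 in the other pairs of groups. In LPS+HCl and control the brain transcripts sit in libraries with different numbers, and their part in this correlation was not tested. With the number as a block, 3600 genes were higher and 3404 lower against control and 2152 higher against LPS. Among gene results in the text the block ended 1 call, that of Snhg11 against control (adjusted p = 0.161 in edgeR). With the LPS+HCl numbers crossed, chosen after seeing the data, 3618 were higher and 3435 lower.

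Of 247 gene results in the text, 233 kept direction and side of the threshold in every alternative. Signs turned for Gpr65 (log2 0.0097 under DESeq2 and under DESeq2-type size factors, 0.079 without both brain libraries and −0.062 to 0.039 with 1 library left out), Camk2a (−0.10 under total counts and −1.53 to 2.39 with 1 library left out), Snhg11 (−0.69 to 4.64 with 1 library left out), and under total counts Fhod1 (−0.26), Ldha (−0.28) and Slc16a3 (−0.19). The cause was not tested. With 2 libraries a group, the spread rests on few values, and genes with few control counts have no stable fold.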
